A study of Mus musculus with 96 samples.

Results

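The miR-7 family of the mouse was followed through the striatum of an allelic series of *Htt* knock-in mice. The family has 3 members, the precursor hairpins mir-7a-1 (MI0000728), mir-7a-2 (MI0000729) and mir-7b (MI0000730), out of 1187 hairpins in the count table. They were selected on their values in these libraries, in Q140 mice against each control group and in Q20 mice against their wild-type littermates, so both of these contrasts are given here as descriptions, with no test. All 3 members passed the filter on low counts, which kept 474 hairpins.

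A microRNA is cut from a hairpin precursor as a short duplex, and 1 strand of that duplex guides repression of messenger RNAs that pair with its seed, bases 2 to 8 from its 5′ end. miR-7 is an old animal microRNA, made mostly by neurons and neuroendocrine cells. Its activity in neurons is tied to the circular RNA Cdr1as, which carries many binding sites for it.

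Each of the 96 libraries held small RNA from the striatum of 1 C57BL/6 mouse. The heterozygous knock-in lines Q140, Q92, Q50 and Q20 carry 1 wild-type *Htt* allele and 1 allele with a human *HTT* exon 1 whose CAG repeat has the length in the name. Their references were wild-type littermates of the Q20 line, WT (Q20), and of the Q50 line, WT (Q50), which carry no knock-in allele, and Q20 together with both WT groups served as the 24 controls of an age. Every genotype was sampled at 10 months and at 6 months, with 4 females and 4 males each. By their labels, Q140 and Q92 mice were housed with mice of their own genotype, while the study's methods describe cages of mixed genotype. They had no wild-type littermates in the series, so line and repeat length, and housing as labelled, cannot be told apart in them.

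All 3 hairpins give a 5p microRNA with the seed GGAAGAC. In the sequences below, from RefSeq (GRCm38.p6), capitals mark the seed, and these lines show why the mir-7a hairpins are harder to count apart than mir-7b.
miR-7a-5p (from mir-7a-1 and from mir-7a-2): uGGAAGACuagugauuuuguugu
miR-7b-5p (from mir-7b): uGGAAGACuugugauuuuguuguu
miR-7a-1-3p: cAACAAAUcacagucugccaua
miR-7a-2-3p: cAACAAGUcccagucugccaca
miR-7b-3p: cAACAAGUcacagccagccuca

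The 5p arms of both mir-7a hairpins were identical over their 23 bases. miR-7b-5p differed from them at A10U, with positions counted from 1 at the 5′ end and the miR-7a base first, and had 1 more base at its 3′ end. Among 1738 mature entries of the reference, 3 had this seed, all from the 3 hairpins. The 3p arms could be told apart: that of mir-7a-2 differed from that of mir-7a-1 at A7G, A10C and U21C, and A7G lies in the 3p seed.

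The hairpins follow, with both mature arms in capitals. They show the different flanks and loops around the arm that the mir-7a precursors have in common.
mir-7a-1: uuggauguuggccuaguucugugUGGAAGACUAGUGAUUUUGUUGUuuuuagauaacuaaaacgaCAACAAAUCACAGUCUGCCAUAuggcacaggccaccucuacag
mir-7a-2: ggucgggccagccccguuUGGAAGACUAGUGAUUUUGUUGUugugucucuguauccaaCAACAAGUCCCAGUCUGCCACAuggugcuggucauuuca
mir-7b: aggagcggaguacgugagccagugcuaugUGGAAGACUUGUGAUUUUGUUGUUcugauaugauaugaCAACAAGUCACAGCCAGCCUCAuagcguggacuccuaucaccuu

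The mir-7a-1 hairpin lies at chr13:58392779-58392886 on the minus strand (GRCm38), inside *Hnrnpk*, which encodes an RNA-binding protein, on the same strand and in intronic sequence of every annotated transcript that spans it. mir-7a-2 lies at chr7:78888277-78888373 and mir-7b at chr17:56242988-56243098, both on the plus strand, and GENCODE vM21 has no other gene over either of them. The longest stretch that both mir-7a hairpins have in common was 24 bases, the 5p arm and 1 base after it, so a read of miR-7a-5p fits both loci.

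The deposited values show this sharing. The estimated counts of mir-7a-1 and mir-7a-2 were not whole numbers in any of the 96 libraries (tolerance 0.001), those of mir-7b were whole in 88, and the sum of all 3 was whole in all 96. Reads had thus been divided among the hairpins, by a rule that the sources used here do not give. The level of each mir-7a hairpin is an estimate that rests on that division, whereas the sum of both, here called mir-7a, was whole in 88 libraries and the family total in 96. Estimated counts divided by deposited FPKM and library total gave lengths of 108, 97 and 111 bases for MI0000728, MI0000729 and MI0000730, the lengths of the RefSeq hairpins.

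Library totals ran from 3948560 to 12530911 counts (median 6638753), and a library held from 709 to 3142 miR-7 family counts. The median counting error was 3.29% for mir-7a-1, 4.99% for mir-7a-2 and 5.67% for mir-7b. The median coefficients of variation between the 8 libraries of a genotype and age were larger, at 14%, 22.9% and 16.4% in the same order. Counting error does not cover the division of reads between the mir-7a hairpins. The spread of either mir-7a hairpin thus cannot be read as a difference between mice alone. Connectivity, a measure of how alike a library is to the others of its age, was below a Z of -5 in 8 libraries. The description of each library ends in an L number from 3 to 6 whose meaning is not given, and L6 occurred at 6 months only. The other microRNAs fixed as tissue markers were not looked up here, because neither the tables nor the reference pair miRBase identifiers with names.

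Per kilobase of hairpin, mir-7a-1 was the highest member with a mean of 1306 FPKM over all libraries (SD 209), ahead of mir-7a-2 with 632 FPKM (SD 217) and mir-7b with 430.1 FPKM (SD 94.0). By mean CPM (counts relative to the library total) the 3 ranked 190, 227 and 243 of the 1187 hairpins, and CPM from here on were also scaled by TMM factors. mir-7a-2 varied most of the 3 between groups and between the libraries of a group.

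**Figure D1:**
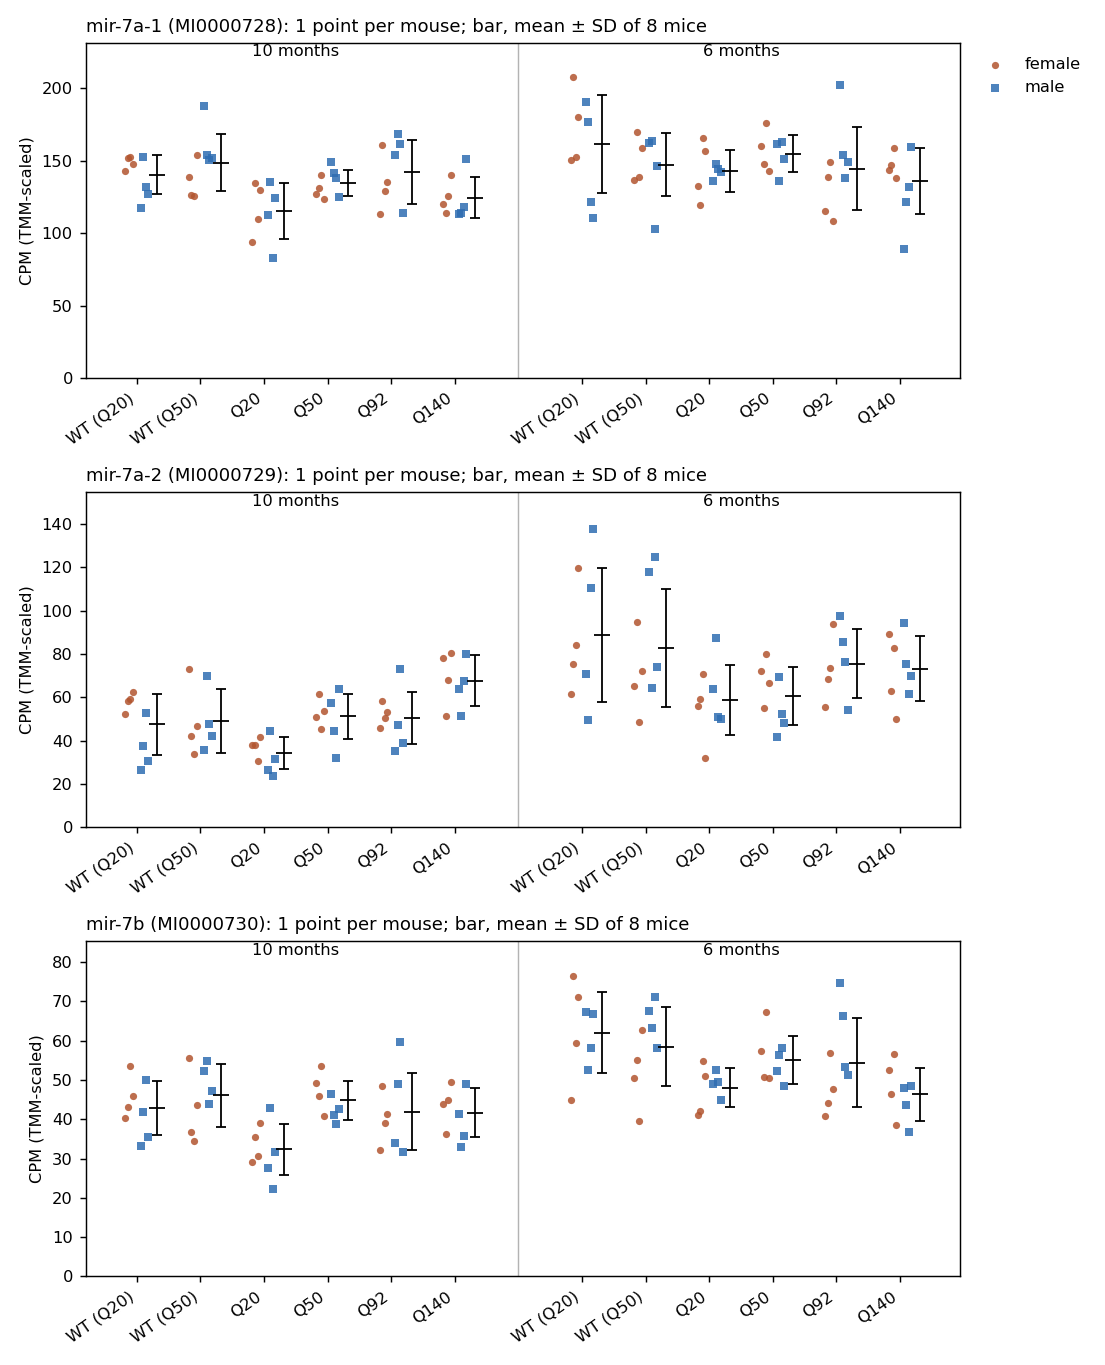
CPM of mir-7a-1, mir-7a-2 and mir-7b in each of the 96 libraries (circles, females, and squares, males), by genotype and age, with the mean and SD of the 8 mice beside the points. The 8 Q140 mice of 10 months lie between 51.5 and 80.4 CPM of mir-7a-2, all above the 8 Q20 mice of that age, and 6-month WT mice spread widest in mir-7a-2.

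At 10 months, mir-7a-2 was higher in Q140 striatum than in any other genotype by mean. The 8 Q140 libraries had from 51.5 to 80.4 CPM with a median of 67.8, against 23.8 to 73.3 CPM with a median of 42.1 in the 24 controls. All 8 Q140 values were above the control median and 3 were above the highest control, while 7 of the 24 controls were above the lowest Q140 value, so the groups overlapped. The log2 difference from edgeR was 0.67 ± 0.13 (SE), 1.59-fold.

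The size of this difference depended on the control group. Against Q20 mice, with 34.3 ± 7.43 CPM (SD, n = 8), it was 0.99 ± 0.17, and no Q140 mouse overlapped with them. Against WT (Q20) mice, with 47.5 ± 13.9 CPM, it was 0.55 ± 0.17. Against WT (Q50) mice, with 49.0 ± 14.7 CPM, it was 0.48 ± 0.17. Of the 8 Q140 mice, 6 were above every WT (Q20) mouse and 3 above every WT (Q50) mouse. How many of the other hairpins separated Q140 from Q20 mice as fully was not counted. Whether the separation of mir-7a-2 is unusual among hairpins was therefore not tested.

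Against the controls together, the other members did not stand out at 10 months. mir-7a-1, the *Hnrnpk* intronic hairpin, had from 113 to 151 CPM with a median of 119 in Q140 mice, against 82.6 to 188 CPM with a median of 135 in controls, a log2 difference of -0.09 ± 0.07. mir-7b had from 33.0 to 49.5 CPM with a median of 42.7 in Q140 mice, against 22.3 to 55.6 CPM with a median of 41.1 in controls, a log2 difference of 0.08 ± 0.10 that ran from 0.04 to 0.12 with 1 library left out. Neither member had a Q140 mouse beyond the range of the controls. Against single groups they differed in both directions. mir-7a-1 stood at -0.23 ± 0.09 against WT (Q50), -0.15 ± 0.09 against WT (Q20) and 0.12 ± 0.09 against Q20. In mir-7a-1, 5 of the 8 Q140 mice were below every WT (Q50) mouse. mir-7b stood at -0.13 ± 0.12, -0.02 ± 0.12 and 0.38 ± 0.12 in the same order, and 4 of the 8 Q140 mice were above every Q20 mouse.

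When both mir-7a hairpins were summed, which does not depend on how reads were divided between them, the log2 difference between Q140 and control mice was 0.13 ± 0.08. For the family total it was 0.15 ± 0.08, with 234 ± 29.8 CPM in Q140 mice (SD, n = 8) and 219 ± 40.3 CPM in controls (n = 24). Against WT (Q20) and WT (Q50) mice the mir-7a sum gave 0.05 ± 0.10 and -0.03 ± 0.10, and against Q20 mice 0.37 ± 0.10. Next to WT mice of 10 months, Q140 mice thus had another division of counts between mir-7a-1 and mir-7a-2, with sums close to those of WT mice.

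That assignment is seen best as the share of mir-7a-2 in the mir-7a counts of a library, which is free of any scaling between libraries. At 10 months this share was 35.1% ± 2.79 in Q140 mice (SD, n = 8, range 31.2% to 39.5%), against 24.1% ± 4.55 in controls (n = 24, range 16% to 34.6%). It was above every control in 6 of the 8 Q140 mice, and 2 controls were above the lowest Q140 mouse. The L number moved with this comparison: 7 of the 8 Q140 libraries of 10 months had L4 and 1 had L5. Within L4 the share was 34.9% in the 7 Q140 mice (31.2% to 39.5%), against 23.9% in 13 controls (19.0% to 28.6%), which did not overlap, and with the L number as a factor the log2 difference of mir-7a-2 was 0.69.

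**Figure D2:**
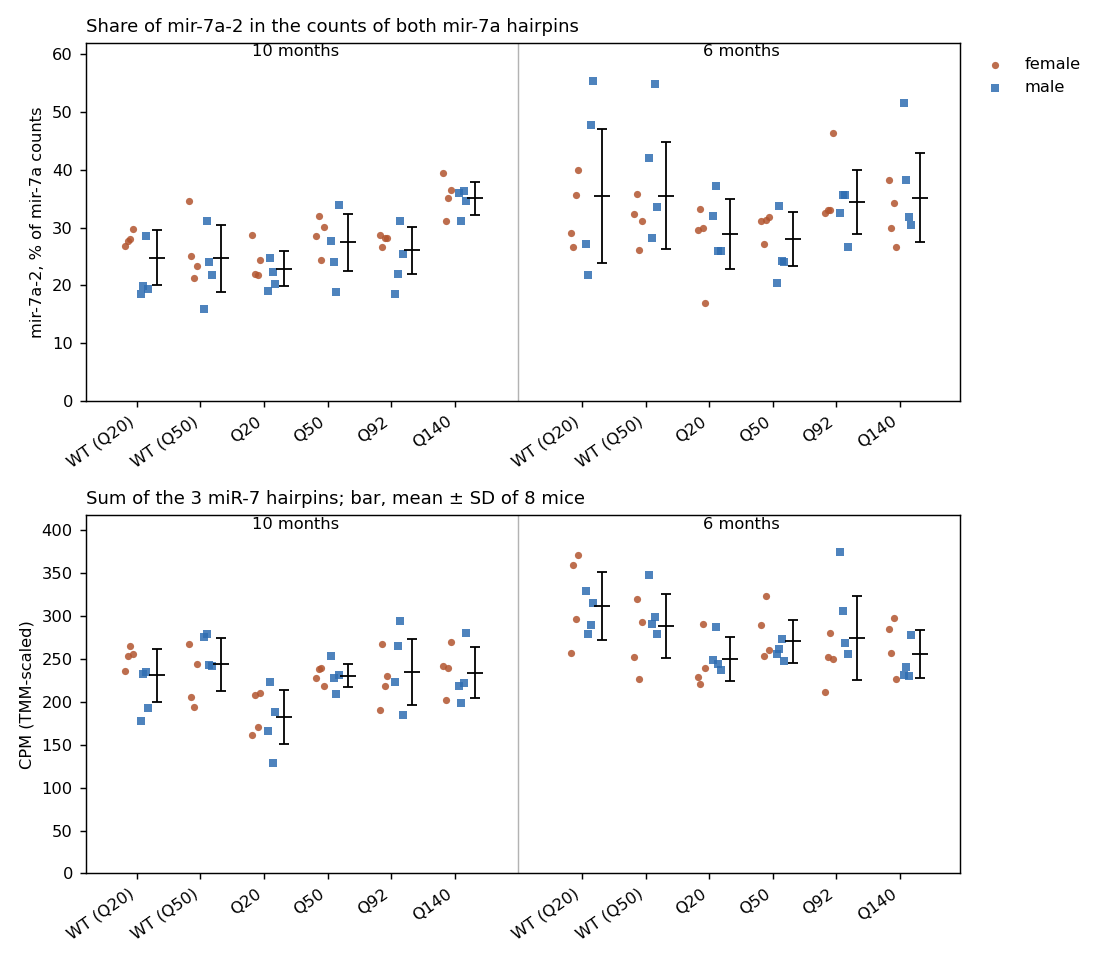
Above, the share of mir-7a-2 in the counts of both mir-7a hairpins, in percent, and below, the CPM of all 3 hairpins together, for each mouse (circles, females, and squares, males) by genotype and age, with mean and SD of 8 mice. The 10-month Q140 mice lie between 31.2% and 39.5% in the share and not apart in the sum, and Q20 mice have the lowest sum at both ages.

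At 6 months the pattern was another one. mir-7a-2 had from 50.1 to 94.4 CPM with a median of 72.7 in Q140 mice, against 32.2 to 138 CPM with a median of 70.8 in controls, a log2 difference of -0.05 ± 0.15. The share of mir-7a-2 was 35.2% ± 7.73 in Q140 mice (SD, n = 8) and 33.3% ± 9.38 in controls (n = 24), with no Q140 mouse outside the control range.

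At 6 months Q140 mice had the lowest mean of the 6 genotypes in mir-7b and in mir-7a-1, and mir-7b differed more from the controls together. mir-7b had from 36.7 to 56.5 CPM with a median of 47.2 in Q140 mice, against 39.6 to 76.4 CPM with a median of 54.9 in controls. 2 of the 8 Q140 mice were below the lowest control and 1 was above the control median. The log2 difference was -0.28 ± 0.09 against the controls together (-0.17 without the libraries of L6, which include 3 of the 8 Q140 and 3 of the 24 control mice), -0.43 ± 0.11 against WT (Q20), -0.35 ± 0.11 against WT (Q50) and -0.07 ± 0.11 against Q20. mir-7a-1 differed by -0.16 ± 0.10, -0.25 ± 0.12, -0.14 ± 0.12 and -0.09 ± 0.12 on the log2 scale against the same 4 references in the same order, and by -0.09, -0.19, -0.05 and -0.03 without Q140 male replicate 1. Without the libraries of L6, the members were alike, with -0.18 ± 0.12 for mir-7a-1 and -0.17 ± 0.11 for mir-7b against the controls together. In bulk tissue, fewer cells that make a microRNA and less of it per cell cannot be told apart.

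At 10 months minus 6 months, the difference between Q140 mice and controls was 0.70 ± 0.21 on the log2 scale for mir-7a-2, 0.33 ± 0.14 for mir-7b and 0.04 ± 0.12 for mir-7a-1. For the mir-7a sum, which is free of the division of reads between its hairpins, it was 0.23 ± 0.11, and 0.19 ± 0.11 against WT mice. These values describe contrasts that chose the members. They share the Q140 and control libraries with all values above.

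**Figure D3:**
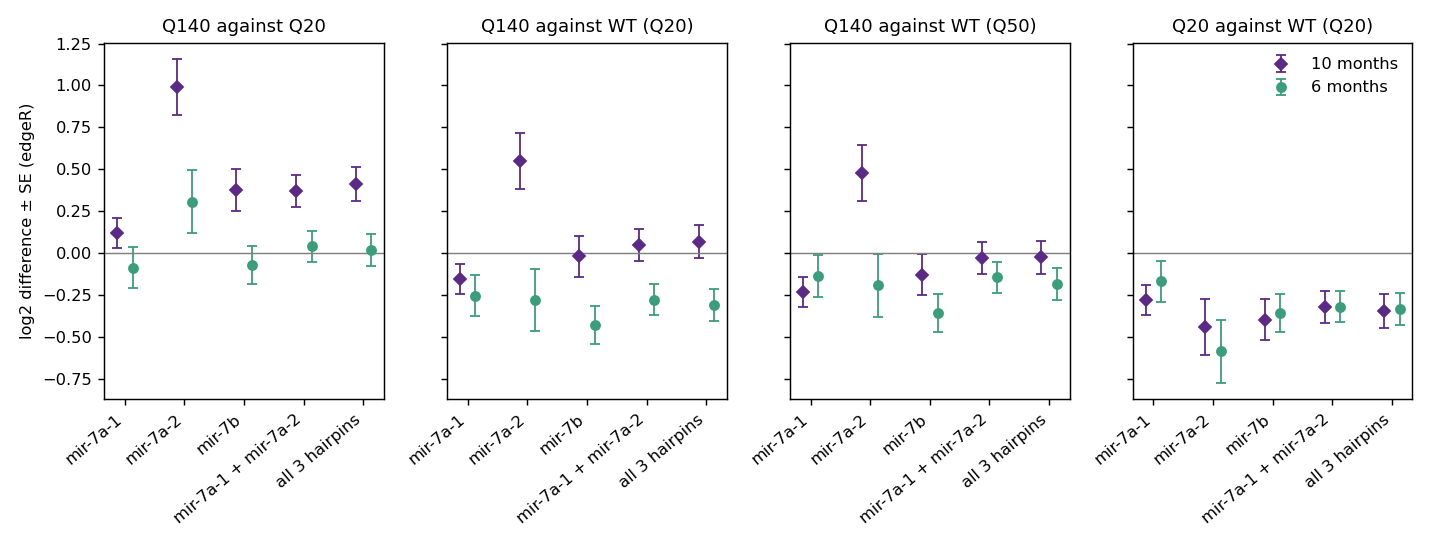
Log2 differences with standard errors from edgeR for the 3 hairpins, the mir-7a sum and the family total, in Q140 mice against each control group and in Q20 mice against WT (Q20) mice, at 10 months (diamonds) and 6 months (circles). mir-7a-2 at 10 months stands at 0.99, 0.55 and 0.48 in Q140 mice, and all 5 values lie below 0 in Q20 mice at both ages.

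Q20 mice, which the study counts among its controls, had a lower mean of every member than their WT littermates at both ages. At 10 months mir-7a-1 had from 82.6 to 136 CPM with a median of 118 in Q20 mice, against 117 to 153 CPM with a median of 145 in WT (Q20) mice, and 4 of the 8 Q20 mice were below every WT (Q20) mouse. mir-7b had from 22.3 to 43.0 CPM with a median of 31.1 in Q20 mice, against 33.2 to 53.6 CPM with a median of 42.5 in WT (Q20) mice, and 5 of the 8 Q20 mice were below every littermate. mir-7a-2 had from 23.8 to 44.6 CPM with a median of 34.7 in Q20 mice, against 26.5 to 62.4 CPM with a median of 52.5 in WT (Q20) mice.

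The log2 differences at 10 months were -0.28 ± 0.09 for mir-7a-1, -0.44 ± 0.17 for mir-7a-2 and -0.40 ± 0.12 for mir-7b. At 6 months they were -0.17 ± 0.12, -0.59 ± 0.19 and -0.36 ± 0.11 in the same order. The sums differed too: the family total differed by -0.34 ± 0.10 at 10 months and by -0.33 ± 0.10 at 6 months, and the mir-7a sum by -0.32 ± 0.10 and -0.32 ± 0.09. The share of mir-7a-2 was 22.9% ± 3.05 in Q20 mice and 24.8% ± 4.71 in WT (Q20) mice at 10 months, and 28.9% ± 6.05 and 35.4% ± 11.6 in the same groups at 6 months (SD, n = 8 each).

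Q140 mice of 6 months were therefore near Q20 mice in mir-7b and in the family total, with 256 ± 28.0 CPM in Q140 and 250 ± 25.7 CPM in Q20 mice, while WT (Q20) mice had 312 ± 39.6 CPM (SD, n = 8 each). Against WT (Q20) mice the family total of Q140 mice differed by -0.31 ± 0.10 and the mir-7a sum by -0.28 ± 0.09. 5 of the 8 Q140 mice and 6 of the 8 Q20 mice were below every WT (Q20) mouse in the family total at 6 months.

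The order of the 6 genotypes by mean differed between members and ages. At 10 months mir-7a-2 ran in descending order from Q140 through Q50, Q92, WT (Q50) and WT (Q20) to Q20, and mir-7b from WT (Q50) through Q50, WT (Q20), Q92 and Q140 to Q20. At 6 months mir-7a-2 ran from WT (Q20) through WT (Q50), Q92, Q140 and Q50 to Q20, and mir-7b from WT (Q20) through WT (Q50), Q50, Q92 and Q20 to Q140. mir-7a-1 ran from WT (Q50) through Q92, WT (Q20), Q50 and Q140 to Q20 at 10 months, and from WT (Q20) through Q50, WT (Q50), Q92 and Q20 to Q140 at 6 months. In each order there are 5 pairs of neighbours, and a step beyond the larger SD of its pair occurred only at 10 months, between Q140 and Q50 in mir-7a-2 (1.41 SD) and between Q140 and Q20 in mir-7b (1.43 SD). All other neighbours, and all neighbours in mir-7a-1, were closer than that SD. Unscaled CPM and FPKM gave the same orders.

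Q92 and Q50 mice are in neither contrast that chose the members, and they were compared with each other by edgeR's quasi-likelihood F test with Benjamini-Hochberg adjustment over the 474 hairpins. None of the 3 members was called at an adjusted p below 0.05 at either age (0 with an unadjusted p below 0.05), and DESeq2 and limma called none. The share of hairpins called was 0.633% at 10 months and 0.211% at 6 months. The nearest to a difference was mir-7a-2 at 6 months, at 0.30 ± 0.19 on the log2 scale (edgeR adjusted p = 0.548). Its share of the mir-7a counts was 34.4% ± 5.57 in Q92 and 28.0% ± 4.68 in Q50 mice of 6 months (SD, n = 8 each, exact two-sided permutation p = 0.0185, adjusted p = 0.0616 over 10 share comparisons), which did not pass the adjusted threshold. Some of the 10 comparisons used WT mice, which stood in the contrasts behind the choice of the members. The adjusted p-values of all shares depend on that family of comparisons.

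Q92 against controls, Q50 against WT (Q50) and WT (Q50) against WT (Q20) use control libraries that also stood in the contrasts behind the choice of the members, so their counts of calls are given and nothing is read from them. edgeR called none of the 3 members in any of these 6 comparisons, and neither did DESeq2 or limma. Of all hairpins, 2.53%, 0% and 0% were called in these comparisons at 10 months and 0% in each at 6 months. 1 unadjusted p was below 0.05, for mir-7a-2 in Q50 against WT (Q50) at 6 months, where it had from 41.7 to 80.1 CPM with a median of 60.8 in Q50 mice, against 48.7 to 125 CPM with a median of 72.9 in WT (Q50) mice. The log2 difference was -0.43 ± 0.19. In Q92 mice of 10 months mir-7a-2 differed from controls by 0.23 ± 0.13, and by 0.11 without Q92 male replicate 3.

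Over both ages together, sex made little difference to the family. None of the 3 members was called between females and males (edgeR, 0 with an unadjusted p below 0.05, 0.844% of the 474 hairpins called), and DESeq2 and limma called none. Their log2 differences were at most 0.05 in size. In females the share of mir-7a-2 was 30.1%, against 29.6% in males (n = 48 each, permutation test, p = 0.771, adjusted p = 0.987). The sexes were not tested within an age, where means of mir-7a-2 ran both ways. In WT mice of both lines it had 53.6 CPM in females and 42.9 CPM in males at 10 months. At 6 months the means were 77.8 CPM in females and 93.6 CPM in males.

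Age was the comparison in which members were called. The numbers that open the library descriptions form a separate run for each age. Age therefore cannot be told apart from anything else that differed between those runs. In Q92 mice 2 of the 3 members, mir-7a-2 and mir-7b, were lower at 10 months. mir-7a-2 had from 34.98 to 73.3 CPM with a median of 49.0 at 10 months, against 54.3 to 97.4 CPM with a median of 74.9 at 6 months, a log2 difference of -0.59 ± 0.19 (edgeR adjusted p = 0.0187). mir-7b differed by -0.37 ± 0.12 (edgeR adjusted p = 0.0213) and mir-7a-1 by -0.02 ± 0.11 (edgeR adjusted p = 0.905). Of all hairpins 17.1% were called there. The mir-7a sum differed by -0.19 ± 0.09 and was not called (edgeR adjusted p = 0.145). mir-7a-2 held 26.1% ± 4.08 of the mir-7a counts at 10 months, against 34.4% ± 5.57 at 6 months (SD, n = 8 each, exact permutation p = 0.00202, adjusted p = 0.0101). The call of mir-7b was lost when any of 4 males was left out (adjusted p from 0.0572 to 0.0848), namely replicate 1 or 4 of 10 months and replicate 1 or 2 of 6 months, and without the 8 libraries of low connectivity (-0.30, adjusted p = 0.105). Neither member was called in the libraries of L4 and L5 alone, where the log2 differences were -0.40 for mir-7a-2 and -0.22 for mir-7b (edgeR adjusted p = 0.265 and 0.356).

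In Q50 mice no member was called, although all 3 had lower means at 10 months. The log2 differences were -0.20 ± 0.11 for mir-7a-1, -0.24 ± 0.19 for mir-7a-2 and -0.30 ± 0.12 for mir-7b (edgeR adjusted p = 0.196, 0.407 and 0.0824), with 1 unadjusted p below 0.05, and 14.3% of all hairpins were called. DESeq2 called 1 member, mir-7b, limma called none, and without the libraries of low connectivity mir-7a-1 was called instead (-0.29, edgeR adjusted p = 0.0276). mir-7a-2 held 27.4% ± 4.87 of the mir-7a counts at 10 months, against 28.0% ± 4.68 at 6 months (exact permutation p = 0.816, adjusted p = 0.987).

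That the age difference of mir-7a-2 was called in Q92 and not in Q50 mice does not show that it differs between them. Tested directly, the difference between Q92 and Q50 mice changed with age by -0.34 ± 0.26 on the log2 scale (edgeR adjusted p = 0.630), and none of the 3 members was called (0 with an unadjusted p below 0.05, 0.422% of hairpins called).

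WT, Q20 and Q140 mice all stood in the contrasts behind the choice of the members, so their age differences are described without a test. In WT mice of both lines together, mir-7a-2 had 48.2 ± 13.9 CPM at 10 months, against 85.7 ± 28.2 CPM at 6 months (SD, n = 16 each), a log2 difference of -0.83 ± 0.13. The values ran from 26.5 to 73.3 CPM with a median of 47.4 at 10 months, against 48.7 to 138 CPM with a median of 74.6 at 6 months, so the ages overlapped. mir-7b had 44.5 ± 7.36 CPM at 10 months, against 60.3 ± 10.0 CPM at 6 months, a log2 difference of -0.44 ± 0.09. For mir-7a-1 it was -0.09 ± 0.08, and -0.15 without WT (Q50) 10-month male replicate 1.

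edgeR placed 2 of the 3 members and 36.9% of the 474 hairpins past its threshold between ages in WT mice, 93 higher and 82 lower at 10 months, from which nothing is read for the members. The mir-7a sum differed by -0.32 ± 0.07. The share of mir-7a-2 was 24.7% ± 5.12 at 10 months, against 35.5% ± 10.1 at 6 months, a difference of -10.7 percentage points. Within L5 the share was 21.7% in 4 WT mice of 10 months, against 39.8% in 10 of 6 months, and within L4 it was 25.4% in 7, against 29.6% in 3.

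A few libraries of 6 months had far more mir-7a-2 than the rest. It held at least 45% of the mir-7a counts in 5 of the 96 libraries, all of 6 months and L5: WT (Q20) male replicates 3 and 4, WT (Q50) male replicate 3, Q140 male replicate 1 and Q92 female replicate 4. In 3 of them, WT (Q20) male 4, WT (Q50) male 3 and Q140 male 1, mir-7a-2 was higher than mir-7a-1, and the same 3 were among the 8 libraries of low connectivity. Without those 8 libraries the age difference in WT mice was -0.74 for mir-7a-2, -0.44 for mir-7b and -0.19 for mir-7a-1, and the share differed by -7.91 percentage points.

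In Q20 mice mir-7a-2 had 34.3 ± 7.43 CPM at 10 months, against 58.8 ± 16.2 CPM at 6 months, a log2 difference of -0.78 ± 0.19, mir-7b differed by -0.57 ± 0.12 and mir-7a-1 by -0.31 ± 0.11. In Q140 mice mir-7a-2 had 67.6 ± 11.7 CPM at 10 months, against 73.3 ± 15.04 CPM at 6 months (SD, n = 8 each), and the log2 differences were -0.12 ± 0.19 for mir-7a-2, -0.15 ± 0.12 for mir-7b and -0.13 ± 0.11 for mir-7a-1. The 10-month Q140 mice had a mean share of mir-7a-2 of 35.1% (median 35.6%), against 35.2% (median 33.1%) at 6 months, where male replicate 1 had 51.5%. The other genotypes of 10 months had mean shares from 22.9% to 27.4%. In Q50 mice the mean share was also close between ages, at 27.4% against 28.0% at 6 months.

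**Figure D4:**
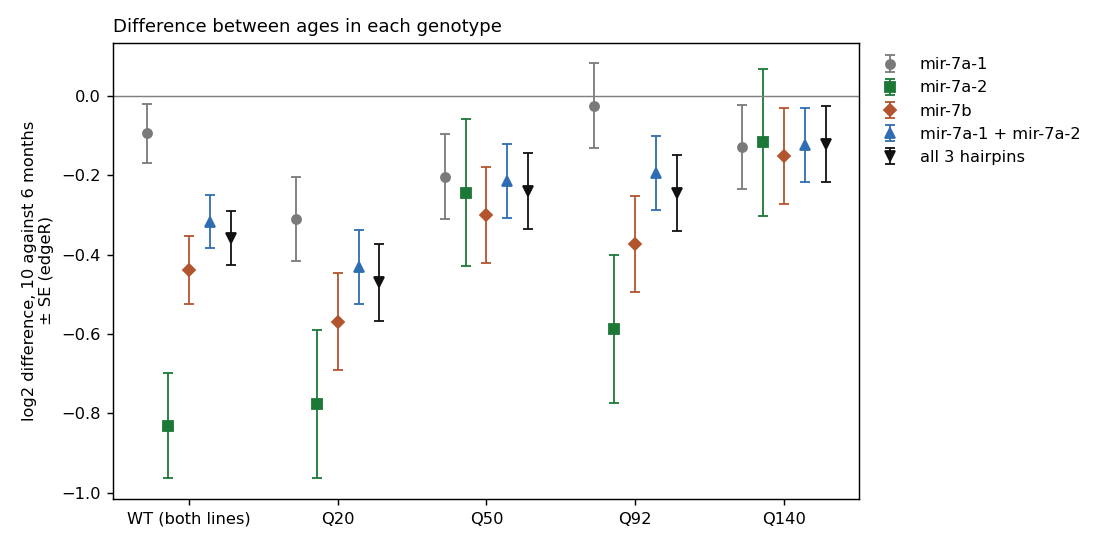
Log2 difference between 10 and 6 months, with standard errors from edgeR, for the 3 hairpins, the mir-7a sum and the family total, in WT mice of both lines and in each knock-in line. mir-7a-2 stands at -0.83 in WT, -0.78 in Q20, -0.24 in Q50, -0.59 in Q92 and -0.12 in Q140 mice, and mir-7a-1 is nearest to 0 in WT and Q92 mice.

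Across the 96 libraries the hairpin most like mir-7a-2 was mir-7b, with a Pearson r of log2 CPM of 0.75, and 0.67 after the mean of each of the 24 groups of genotype, age and sex was subtracted. mir-7b was second to MI0022791 (r = 0.68) in likeness to mir-7a-1, with r = 0.65, and 0.54 within groups. mir-7a-1 and mir-7a-2 themselves had r = 0.22 over all libraries and 0.01 within groups, and their counts share reads. The remaining hairpins of the closest 3 were MI0000151 for mir-7a-1 (r = 0.65), MI0005003 (r = 0.75) and MI0003521 (r = 0.70) for mir-7a-2, and MI0003521 (r = 0.63) for mir-7b. These values are descriptions over libraries of both ages and all genotypes, so differences between groups enter the r over all libraries.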

How the data were processed

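A table of estimated counts and a table of FPKM were used. The first holds estimated counts per hairpin, which the authors made from strand-specific 36-base reads (per the study's methods STAR to mm10, then HTSeq, and CASAVA 1.8.2 in the submitters' processing notes). The second holds FPKM, which the authors made from those counts, relative to hairpin length and library total. HTSeq gives whole counts by default, and how reads were divided is not given in the sources used here.

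Estimated counts were rounded and tested in edgeR 4.0.16 (R 4.3.3) with TMM, sex as a covariate and robust quasi-likelihood F tests, over 474 hairpins kept by filterByExpr (minimum count 10), adjusted by Benjamini-Hochberg. Genotypes were compared within an age (48 libraries) and ages over all 96. CPM are TMM-scaled. Shares were compared by permutation tests (exact for 8 against 8, otherwise 100000 resamples). Alternatives were DESeq2 1.42.0, limma 3.58.1 on log2(FPKM + 1), other scalings, filters and covariates, each library left out, libraries with connectivity Z below -5 left out, and hairpins summed. The sum of all 3 hairpins, L4 and L5 alone and L6 left out were chosen after the data were seen. The fits were tested on simulated data. The members and lists were chosen with earlier results of these data known. The named rule was the 3 members and, for each, the 3 hairpins of highest r. Lists of neuronal, miR-7 circuit (mir-671), neuroendocrine (mir-375) and cell type marker microRNAs could not be matched to identifiers. No 2 libraries were duplicates (smallest chi-square per degree of freedom 16). Nothing in the labels ties equal replicate numbers to a litter, batch or day.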

Additional observations from a re-analysis of the deposited data

Results flagged for a closer look

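In 48 groups of 8 mice (3 members and the share of mir-7a-2, by genotype and age), a highest value stood far from the next in 3, where chance gives about 1 in 20. In Q140 mice of 6 months, male replicate 1 had a mir-7a-2 share of 51.5%, with the next at 38.3%. In Q92 mice of 6 months, female replicate 4 had a share of 46.4%, with the next at 35.7%. Both had L5, and the connectivity Z was -9.30 for the Q140 library and 0.34 for the Q92 library. In WT (Q50) mice of 10 months, male replicate 1 had 188 CPM of mir-7a-1, with the next at 154 CPM, an L number of 3 and a connectivity Z of -0.03.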

How the results depend on the processing

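Over 14 settings, 63 values gave 767 alternative values, of which 714 were labelled as unchanged. Counts of members called could change slightly under that label, as from 2 to 3 between ages in WT mice without libraries of low connectivity. Values judged by the threshold, those between ages in WT mice among them, kept their direction and side of it. Untested values stayed within 1 SD. That SD, of log2 CPM within a genotype and age, was from 0.19 to 0.40, so a change of sign could pass for an untested value. An example was mir-7a-2 in Q140 mice against controls at 6 months, at -0.05, and 0.01 with the L number as a factor. Summing both mir-7a hairpins gave 0.13 in place of the 10-month Q140 differences of mir-7a-1 and mir-7a-2 from controls, and summing all 3 gave 0.15, since a sum drops the division between hairpins. In Q50 mice the count of members called between ages was 1 with DESeq2, with a filter at a mean of 10 CPM or without libraries of low connectivity, and 2 with only the groups compared in the fit. In Q92 mice it was 1 with library totals, limma, only the groups compared, low connectivity left out or L6 left out, and 0 with L4 and L5 alone. Directions turned for values near 0. mir-7a-1 between ages in Q92 mice was 0.030 with library totals, 0.039 with limma, 0.038 without libraries of low connectivity, 0.048 without L6 and 0.040 in L4 and L5. The share of mir-7a-2 between ages in Q50 mice was 0.75 percentage points without libraries of low connectivity and 0.94 both without L6 and in L4 and L5. For Q92 against Q50 at 6 months all 3 hairpins summed gave -0.0048. The cause was not tested where none is given.

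With each library left out, the count in Q92 mice ran from 1 to 2, mir-7a-1 there from -0.079 to 0.062 and the Q50 share from -1.62 to 0.67 percentage points. The 10-month Q140 difference of mir-7a-2 from controls ran from 0.62 to 0.73. Small differences moved most: for Q140 against WT (Q20) at 10 months mir-7b ran from -0.06 to 0.03, and between ages in Q140 mice mir-7a-2 ran from -0.19 to -0.07 and mir-7a-1 from -0.22, without 6-month male replicate 1, to -0.09. The median of all hairpins moved by over 0.1 on the log2 scale between ages in Q20 mice with library totals and with limma on FPKM (0.10 each), and in Q140 mice with limma (0.13).

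Equal replicate numbers did not pair the mice: their deviations correlated at -0.05 in females and -0.05 in males at 6 months, and at -0.0049 and -0.0093 at 10 months. With replicate number as a block, mir-7a-2 between ages in WT mice was -0.84 and in Q92 mice -0.59, and the count of members called stayed at 2 in Q92 mice and at 0 in Q50 mice.

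The division of reads between mir-7a-1 and mir-7a-2 limits every value of a single hairpin, and the files cannot say which locus made a miR-7a-5p read. Line, and housing as labelled, cannot be told apart from repeat length in Q140 and Q92 mice. Age cannot be told apart from other differences between the separate runs of library numbers. Counting error covers sampling of reads only, and PCR copies are not independent molecules.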
